A study of Mus musculus with 6 samples.

Results

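The genes of lipid metabolism and lipid transport were examined in hearts of *db/db* mice treated with FGF1ΔHBS or vehicle. They were chosen by name, as every gene in the deposited table whose symbol begins with the stem of an acyl-CoA synthetase, thioesterase, dehydrogenase, carboxylase, carnitine palmitoyltransferase, elongase, desaturase, lipase, phospholipase, perilipin, fatty acid-binding protein, oxysterol-binding protein, subfamily A transporter, apolipoprotein or related enzyme. Of 4132 genes analysed here, 35 matched. Because *Gpatch4* and *Gpatch8* encode G-patch domain proteins and matched only by the letters of their names, 33 of the 35 are lipid genes in fact. No member of the fixed groups for peroxisomal oxidation, glycerolipid synthesis, or lipid droplets and lipolysis was among the genes analysed here.

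All 6 mice were *db/db* (genotype lepr-/-) and 26 weeks old, and the methods name male mice of the C57BLKS/J strain. These mice are homozygous for a mutation of the leptin receptor gene and become obese and diabetic. The FGF1ΔHBS group (3 mice) received intraperitoneal injections of 0.5 mg/kg recombinant human FGF1ΔHBS, labelled FGF1 variant, every other day for 16 weeks, starting at 10 weeks of age. The vehicle group (3 mice) received saline on the same schedule, so both groups share the diabetic genotype and lean *db/m* hearts were not analysed here. The paper reports lower blood glucose and body weight in *db/db* mice given FGF1ΔHBS, and these cannot be told apart from the treatment here. FGF1ΔHBS is a form of fibroblast growth factor 1 with an altered heparin-binding site that was made to be non-mitogenic. RNA-Seq was performed on heart tissue of each mouse, and the values are FPKM, fragment counts scaled to transcript length and library size, which allow levels to be compared between genes per length.

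The adult heart draws most of its energy from fatty acids. Long-chain fatty acids are joined to coenzyme A by acyl-CoA synthetases, passed into mitochondria by the carnitine palmitoyltransferases, and shortened step by step in β-oxidation by acyl-CoA dehydrogenases, hydratases, hydroxyacyl-CoA dehydrogenases and thiolases. Malonyl-CoA, the product of acetyl-CoA carboxylase, inhibits entry through carnitine palmitoyltransferase 1, and many genes of the pathway are targets of the nuclear receptor PPARα. In diabetic hearts, reliance on fatty acids is known to be raised and lipids accumulate.

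Heart muscle markers were present in every library. Of 10 such markers, 4 were analysed here (*Tnnt2*, *Actc1*, *Nppa* and *Atp2a2*), with summed levels between 10910 and 12720 FPKM with vehicle and between 11420 and 12780 FPKM with FGF1ΔHBS. *Nppa*, which encodes atrial natriuretic peptide and adds little to this sum, was at 170, 431 and 62.2 FPKM against 75.4, 22.7 and 47.4 FPKM (log2 fold change -1.91, unadjusted p = 0.0296, adjusted p = 0.231 by limma). The labels' account of library preparation speaks of adipose RNA, so adipocyte markers were examined, of which 1 of 8 white adipocyte markers was analysed here. *Adipoq* was listed at 0, 0.217 and 0 FPKM in the vehicle mice and at 1.21, 0.246 and 0.648 FPKM in the FGF1ΔHBS mice. The other marker lists were each represented by 1 or 2 genes, and among these *Cd14* of macrophages was lower in all FGF1ΔHBS mice (3.84, 3.91 and 9.17 against 2.40, 3.05 and 2.55 FPKM). The *Slc12a1* level, from the kidney list, reached 0.844 FPKM at most, and *Dio2* of brown adipocytes reached 0.893 FPKM. In bulk tissue, fewer cells of a type and less RNA per cell cannot be told apart. Depth is not given by FPKM, but the steps between low values placed the libraries between 1 and 1.21 times the depth of vehicle replicate 1.

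To relate the genes to PPARα, the 250 bases upstream of the RefSeq transcription start (GRCm38.p6) were searched on both strands for the letters AGGTCA, the half-site that nuclear receptors of this kind bind as a repeat. A promoter was found for 28 of the 35 genes, and 3 of the 28 (10.7%) held the half-site (*Acadm*, *Cpt1a* and *Fads6*), against 14.02% of the 32851 promoters of all genes. The full DR1 repeat was in 0 of the 28 and in 11 of all 32851 promoters (0.0335%). The exact DR1 repeat was thus too rare to tell the 28 from other genes, and the half-site was no more frequent in the 28. Matches of these letters could therefore not decide which of the genes are PPARα targets. A pair of these windows is shown, *Apod* for the gene with the largest fold change and *Acadm* for the gene with the highest level, each read 5′ to 3′ on the minus strand. The *Apod* window lies at chr16:31314809-31315058 and the *Acadm* window at chr3:153944644-153944893. Capitals mark the half-site, which reads TGACCT on the gene's strand and starts at position -249 from the transcription start of *Acadm*, and *Apod* has none in its window.
Apod: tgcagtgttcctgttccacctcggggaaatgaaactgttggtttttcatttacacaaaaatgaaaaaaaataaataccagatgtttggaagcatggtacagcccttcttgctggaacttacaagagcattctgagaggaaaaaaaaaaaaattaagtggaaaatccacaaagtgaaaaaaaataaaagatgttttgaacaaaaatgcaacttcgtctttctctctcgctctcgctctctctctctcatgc
Acadm: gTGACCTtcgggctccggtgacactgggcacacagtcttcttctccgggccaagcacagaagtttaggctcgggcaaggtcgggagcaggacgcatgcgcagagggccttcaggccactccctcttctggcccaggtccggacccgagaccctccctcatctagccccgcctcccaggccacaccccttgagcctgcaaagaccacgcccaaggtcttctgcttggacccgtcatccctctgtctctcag
A match of these letters is a description of the sequence and was not tied to binding in these hearts.

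The levels spanned more than 3 orders of magnitude. *Acadm*, *Acaa2*, *Hadh* and *Cpt1b*, all of mitochondrial oxidation, had the highest means over the 6 mice (740, 607, 470 and 214 FPKM), followed by *Acadsb* (62.5 FPKM) and *Acad11* (52.6 FPKM). The deposited loci of *Cpt1b*, *Acadsb* and *Acad11* ran past the genes (by 5005, 1675410 and 60833 bases), so these levels may include reads of neighbors. At the other end, *Fads6* and *Pla2g3* averaged 0.501 and 0.392 FPKM, and *Fabp2*, the intestinal fatty acid-binding protein, was listed at 0 in 5 mice and at 0.107 FPKM in vehicle replicate 2. These 3 genes had a mean under 1 FPKM and were not tested, which left 32 of the 35. The lowest genes above this minimum were *Apoc3* (1.02 FPKM), which passed only through vehicle replicate 2, and *Acaca* (1.27 FPKM).

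**Figure D1:**
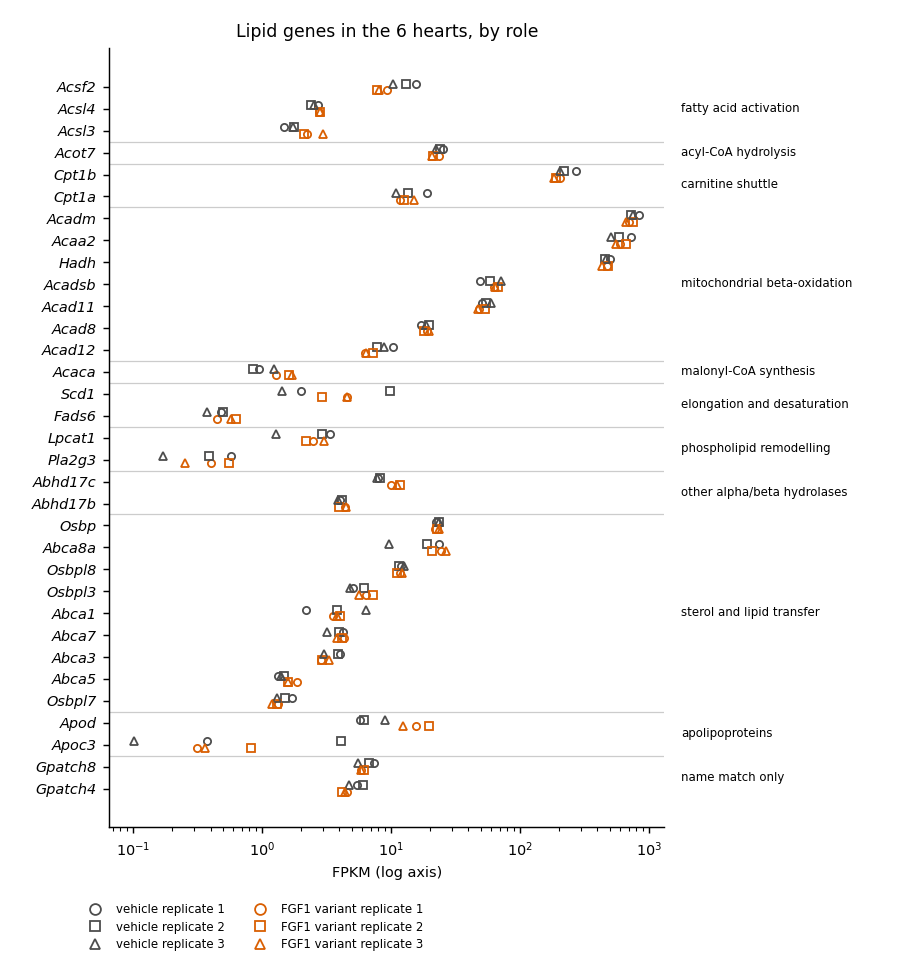
FPKM (log axis) of lipid genes above 0 in every mouse, grouped by role, with 1 symbol per mouse (gray, vehicle, n = 3; orange, FGF1ΔHBS, labelled FGF1 variant, n = 3). *Acadm*, *Acaa2* and *Hadh* lie highest in all 6 hearts, from 434 to 841 FPKM, and *Apod* and *Acsf2* are separated between the groups in opposite directions.

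The comparison of FGF1ΔHBS with vehicle asked which genes of lipid handling differed in the diabetic heart after long-term treatment. Of the 32 lipid genes tested, 0 passed an adjusted p-value of 0.05 by limma with Benjamini-Hochberg adjustment, and 2 of all 2041 genes tested did (0.0980%). At an unadjusted p-value under 0.05, 4 lipid genes were higher with FGF1ΔHBS (*Apod*, *Abhd17c*, *Acsl3* and *Acaca*) and 3 were lower (*Acsf2*, *Acad12* and the name match *Gpatch4*). These are 12.5% and 9.38% of the genes, beside 7.10% and 10.0% of all genes tested. Complete separation of the groups was seen for 6 genes higher with FGF1ΔHBS and 5 genes lower (18.8% and 15.6%), beside 10.7% and 13.6% of all genes. The median log2 fold change was -0.018 over the 32 genes and -0.021 over all genes tested, with 14 lipid genes above 0 and 18 below. The counts over lipid genes are to be read against these shares, and no test over the list was made. Vehicle replicate 3 weighed on them, since without it 2 lipid genes (*Apod* and *Acsf2*) and 82 of all genes passed the adjusted threshold, and 5 lipid genes higher and 6 lower were at an unadjusted p under 0.05, beside 8.13% and 16.1% of all genes. Without FGF1ΔHBS replicate 3, 2 lipid genes higher (*Apod* and *Abhd17c*) and 3 lower were at that level, beside 6.08% and 7.496% of all genes.

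**Figure D2:**
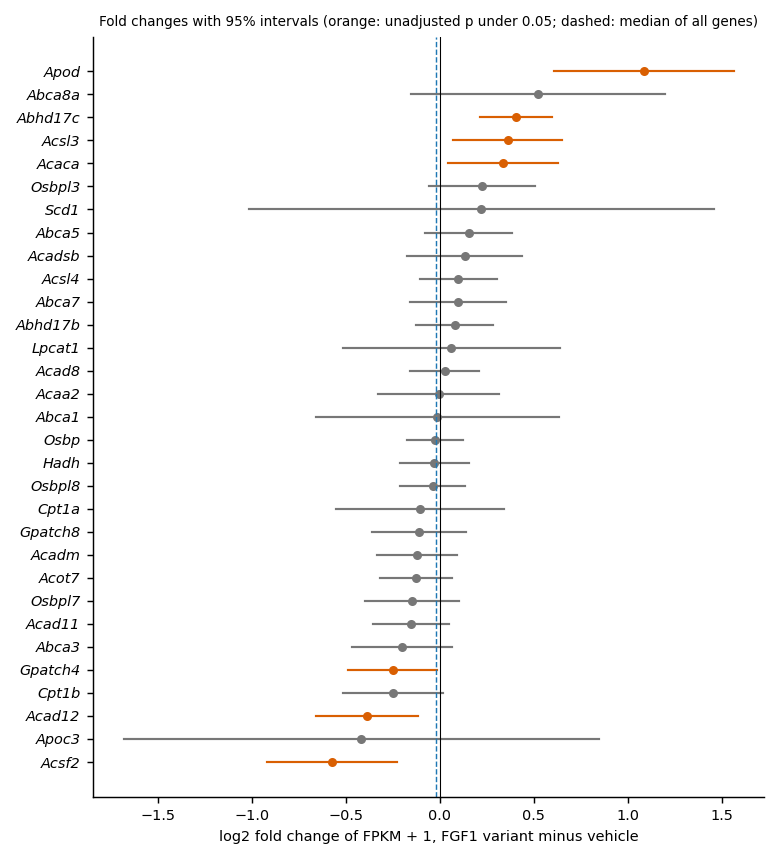
Log2 fold change of FPKM + 1 (FGF1ΔHBS minus vehicle, 3 mice each) with its 95% interval from limma for 31 of the 32 genes tested, in order of size, with the median of all genes dashed. The orange intervals, those of 7 genes at an unadjusted p under 0.05, lie to one side of 0, while those of *Scd1* and *Apoc3* are the widest.

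Fatty acid activation held 3 genes, of which *Acsf2* was lower and *Acsl3* higher with FGF1ΔHBS at an unadjusted p under 0.05, and none passed the adjusted threshold. *Acsf2* (ENSMUSG00000076435, chr11:94557102-94601871 of GRCm38) encodes a mitochondrial acyl-CoA synthetase. It was at 15.8, 13.2 and 10.4 FPKM in the vehicle mice and at 9.36, 7.85 and 8.06 FPKM in the FGF1ΔHBS mice. The groups did not overlap, and the lowest vehicle value was that of replicate 3. The log2 fold change was -0.57 (SE 0.146, 95% interval -0.92 to -0.23, adjusted p = 0.119 by limma). *Acsl3* (ENSMUSG00000032883, chr1:78657825-78707743), a long-chain acyl-CoA synthetase of the endoplasmic reticulum and lipid droplets, was in contrast at 1.48, 1.79 and 1.73 FPKM with vehicle and at 2.25, 2.11 and 2.96 FPKM with FGF1ΔHBS. Its groups did not overlap either, and the log2 fold change was 0.36 (SE 0.124, adjusted p = 0.205 by limma). For *Acsl4*, which prefers arachidonic acid, the values were 2.72, 2.42 and 2.54 FPKM against 2.79, 2.82 and 2.82 FPKM. These groups were apart by a narrow margin, with a log2 fold change of 0.10 (95% interval -0.11 to 0.30). The thioesterase *Acot7*, which cleaves acyl-CoA again, had overlapping groups (23.9 ± 1.62 against 21.8 ± 1.53 FPKM, SD, n = 3).

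The carnitine shuttle was represented by both forms of carnitine palmitoyltransferase 1. *Cpt1b* (ENSMUSG00000078937, chr15:89416405-89425863), the muscle form, was at 274, 220 and 206 FPKM in the vehicle mice and at 206, 193 and 186 FPKM in the FGF1ΔHBS mice. Vehicle replicate 3 and FGF1ΔHBS replicate 1 were within 1 FPKM of each other, so the groups were separated by almost nothing. The log2 fold change of -0.25 had a 95% interval from -0.52 to 0.02 (adjusted p = 0.312 by limma). *Cpt1a* (ENSMUSG00000024900, chr19:3322334-3385733), the form that predominates in liver, was at 19.1, 13.5 and 10.9 FPKM against 11.9, 12.6 and 15.1 FPKM, and the groups overlapped. The level of *Cpt1b* was 14.3, 16.2 and 18.8 times that of *Cpt1a* with vehicle and 17.3, 15.3 and 12.3 times with FGF1ΔHBS, so the balance of the forms overlapped between the groups. *Acaca* (ENSMUSG00000020532, chr11:84129672-84401651) encodes acetyl-CoA carboxylase 1, which makes malonyl-CoA for fatty acid synthesis. It was at 0.942, 0.850 and 1.24 FPKM with vehicle and at 1.28, 1.62 and 1.70 FPKM with FGF1ΔHBS. The lowest FGF1ΔHBS value lay just above the highest vehicle value. Its log2 fold change was 0.34 (SE 0.124, adjusted p = 0.232 by limma), and at such low levels the pseudocount of 1 holds the fold change below the ratio of the means (1.52).

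Among the genes matched by name, 7 were placed in mitochondrial β-oxidation, and the abundant ones among them differed little. *Acadm* (ENSMUSG00000062908, chr3:153922357-153944632), which encodes medium-chain acyl-CoA dehydrogenase, was at 841, 722 and 749 FPKM with vehicle and at 697, 756 and 672 FPKM with FGF1ΔHBS. The groups overlapped, and the interval of the log2 fold change ran from -0.33 to 0.09. *Acaa2*, the thiolase of the last step, was at 725, 592 and 514 FPKM against 594, 663 and 554 FPKM (interval -0.33 to 0.32). *Hadh*, the hydroxyacyl-CoA dehydrogenase of the step before, was at 502, 456 and 466 FPKM against 475, 486 and 434 FPKM (interval -0.21 to 0.15). Vehicle replicate 1 had the highest value of each of these 3 genes, and their summed level was 2068 FPKM in that mouse and 1660 to 1904 FPKM in the other 5. Among the other dehydrogenases, *Acadsb* and *Acad8*, which act in the breakdown of isoleucine and valine, were at 60.0 ± 11.4 and 18.6 ± 1.40 FPKM with vehicle and at 65.1 ± 2.04 and 18.9 ± 0.859 FPKM with FGF1ΔHBS (SD, n = 3). *Acad11* was at 55.4 ± 4.60 against 49.7 ± 3.55 FPKM (SD, n = 3), and all 3 had overlapping groups.

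*Acad12* (ENSMUSG00000042647, chr5:121596775-121618938), a less studied acyl-CoA dehydrogenase, was the only 1 of the 7 β-oxidation genes with groups that did not overlap. It was at 10.4, 7.78 and 8.88 FPKM in the vehicle mice and at 6.26, 7.24 and 6.36 FPKM in the FGF1ΔHBS mice. Every FGF1ΔHBS mouse was below every vehicle mouse, and the log2 fold change was -0.39 (SE 0.115, adjusted p = 0.154 by limma). Over the 9 genes placed in β-oxidation and the carnitine shuttle, 7 had a log2 fold change below 0, beside 1118 of all 2041 genes, and the median was -0.11. The 2 above 0 were *Acadsb* (0.13) and *Acad8* (0.026), the dehydrogenases of isoleucine and valine breakdown. Without vehicle replicate 1, both were below 0 (-0.00098 and -0.029). In that fit *Acaa2*, *Hadh* and *Cpt1a* were above 0 (0.13, 0.012 and 0.098), so these directions rested on 1 mouse. Of the 9, 1 (*Acad12*) was lower at an unadjusted p under 0.05, beside 10.0% of all genes tested. The groups overlapped for 7 of the 9, and the other 2 (*Acad12* and *Cpt1b*) were lower without overlap, beside 13.6% of all genes tested.

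Other genes of mitochondrial fatty acid oxidation and PPARα targets were taken from a further fixed list. They include the β-oxidation enzymes *Decr1*, *Eci2* and *Echs1*, which the name rule did not match and the counts above leave out. Of 26 genes listed, 7 were analysed here, and all 7 were tested. Of these, 6 had a log2 fold change above 0, beside 923 of all 2041 genes tested, and 0 passed the adjusted threshold. At an unadjusted p under 0.05, 1 was higher and 1 lower, beside 7.10% and 10.0% of all genes. The groups did not overlap for 2 genes higher and 1 lower, beside 10.7% and 13.6% of all genes. *Etfa*, a subunit of the flavoprotein that takes electrons from acyl-CoA dehydrogenases, was at 424, 406 and 443 FPKM with vehicle and at 469, 514 and 465 FPKM with FGF1ΔHBS (unadjusted p = 0.0409, adjusted p = 0.272 by limma). *Ucp3*, a mitochondrial uncoupling protein and PPARα target, was at 49.2, 22.9 and 30.3 FPKM against 10.7, 19.6 and 18.4 FPKM (unadjusted p = 0.0137, adjusted p = 0.163 by limma). The paper reports *Ucp3* mRNA as raised by FGF1ΔHBS, which is the opposite direction. It also reports *Etfa* and *Etfdh* mRNA as raised, the same direction as here. *Decr1*, *Eci2*, *Echs1*, *Etfdh* and *Acat1* had log2 fold changes between 0.05 and 0.12, at unadjusted p-values of 0.21 or more, and of these 5 only *Acat1* had groups that did not overlap. Of 23 genes of fatty acid uptake and its regulators, *Slc27a1* and *Esrrg* were analysed here, and both had overlapping groups. None of 17 genes of a list on further lipolysis and lipogenesis was analysed here.

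Enzymes of desaturation and phospholipid remodelling were few. *Scd1*, the stearoyl-CoA desaturase that makes monounsaturated fatty acids, was at 1.999, 9.81 and 1.42 FPKM with vehicle and at 4.61, 2.95 and 4.61 FPKM with FGF1ΔHBS. Here vehicle replicate 2 stood apart from both other vehicle mice, and the interval ran from -1.02 to 1.46. *Lpcat1*, which reacylates lysophosphatidylcholine, was lowest in vehicle replicate 3 (3.40, 2.95 and 1.28 against 2.48, 2.21 and 3.03 FPKM).

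Among the other α/β hydrolases, *Abhd17c* (ENSMUSG00000038459, chr7:84109356-84151893) encodes an enzyme that removes palmitate from proteins. It was at 7.99, 8.27 and 7.82 FPKM in the vehicle mice and at 10.1, 11.8 and 11.1 FPKM in the FGF1ΔHBS mice. The vehicle mice lay close together and all FGF1ΔHBS mice lay above them, with a log2 fold change of 0.41 (SE 0.0812, adjusted p = 0.116 by limma). Its paralog *Abhd17b*, of the same activity, was at 4.03 ± 0.180 against 4.31 ± 0.274 FPKM (SD, n = 3), and the groups overlapped (95% interval -0.12 to 0.28).

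*Apod* (ENSMUSG00000022548, chr16:31296192-31314808) had the largest log2 fold change and the smallest p-value of the lipid genes tested. It encodes apolipoprotein D, a lipocalin that binds arachidonic acid and other small hydrophobic ligands. Its level was 5.78, 6.17 and 9.05 FPKM in the vehicle mice and 15.8, 19.9 and 12.4 FPKM in the FGF1ΔHBS mice. All FGF1ΔHBS mice were above all vehicle mice, and vehicle replicate 3 was the nearest to them. The means were 7.00 ± 1.79 and 16.0 ± 3.77 FPKM (SD, n = 3), a ratio of 2.29. The log2 fold change was 1.09 (SE 0.203, 95% interval 0.61 to 1.57, adjusted p = 0.116 by limma), and a two-sided exact permutation test gave p = 0.1, the smallest that 3 mice against 3 allow. Without vehicle replicate 3, the adjusted p-value was 0.0211 for *Apod* (log2 fold change 1.26) and 0.0247 for *Acsf2* (-0.72), and with the other libraries left out in turn neither passed. *Adipoq* was also higher in all FGF1ΔHBS mice (levels given with the markers), and its part in the *Apod* difference was not tested.

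**Figure D3:**
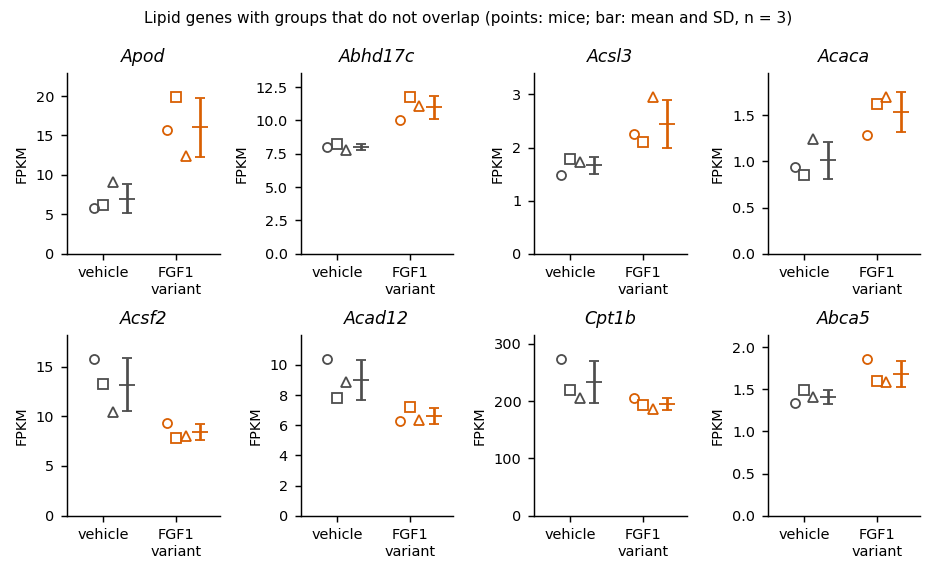
FPKM of 8 of the 11 lipid genes whose groups do not overlap, with 1 symbol per mouse (circle, square and triangle for replicates 1, 2 and 3) and the mean ± SD of 3 mice, on axes that start at 0. *Apod* separates the groups most widely, and the groups of *Cpt1b* nearly touch at 206 FPKM.

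The other apolipoprotein, *Apoc3*, an inhibitor of lipoprotein lipase made mainly in liver and intestine, was at 0.378, 4.11 and 0.103 FPKM with vehicle and at 0.315, 0.826 and 0.361 FPKM with FGF1ΔHBS. Vehicle replicate 2 alone was above 1 FPKM, and the other liver marker analysed here, *Ahsg*, was also at its highest there (11.9 FPKM), though FGF1ΔHBS replicate 3 reached 11.1 FPKM. The part of liver RNA in these values was not tested.

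Sterol and lipid transfer was the largest group, with 9 genes, and 0 of them were at an unadjusted p under 0.05. *Osbp*, which exchanges cholesterol for a phosphoinositide between membranes, was the most abundant and was at 22.3, 23.8 and 23.6 FPKM with vehicle and at 22.1, 22.7 and 23.6 FPKM with FGF1ΔHBS. These groups overlapped, and the interval of the log2 fold change (-0.17 to 0.13) was among the narrowest of the lipid genes. Of the related genes *Osbpl3*, *Osbpl7* and *Osbpl8*, the first had a log2 fold change of 0.23 (95% interval -0.06 to 0.51) and the other two -0.15 and -0.04. The transporter *Abca5* was at 1.33, 1.49 and 1.40 FPKM against 1.86, 1.59 and 1.58 FPKM, and its groups did not overlap (log2 fold change 0.15, 95% interval -0.08 to 0.39). *Abca3*, which loads lipid into lamellar bodies in the lung, and *Abca7* overlapped between the groups, with log2 fold changes of -0.20 and 0.10.

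*Abca1* and *Abca8a* were singled out after their values were seen, because of the wide spread between their vehicle mice. *Abca1*, which exports cholesterol and phospholipid to apolipoprotein A-I, was at 2.21, 3.81 and 6.45 FPKM in the vehicle mice and at 3.58, 4.06 and 3.84 FPKM in the FGF1ΔHBS mice. *Abca8a*, a relative with several close paralogs beside it on chromosome 11, whose reads the counting could have split between copies, was at 23.5, 19.1 and 9.64 FPKM against 24.6, 20.9 and 26.6 FPKM. For *Abca1* the vehicle mice were spread evenly, with replicate 1 the lowest and replicate 3 the highest of the 6 mice, and for *Abca8a* vehicle replicate 3 was far below the other 5. Vehicle replicate 3 had the highest *Cd14* (9.17 FPKM) and, among the vehicle mice, the lowest *Tie1* (11.6 FPKM), a receptor of endothelial cells, and the part of these cell types was not tested. The log2 fold change of *Abca1* was -0.01, and was 0.30 without vehicle replicate 3 and -0.31 without vehicle replicate 1. That of *Abca8a* was 0.52, and was 0.17 without vehicle replicate 3.

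**Figure D4:**
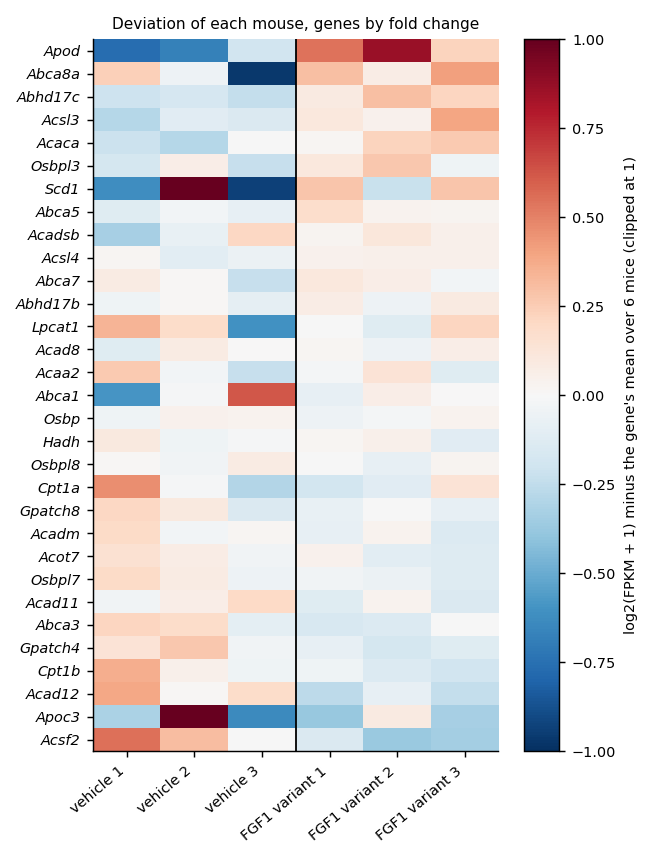
Log2(FPKM + 1) of each mouse minus the gene's mean over 6 mice, for 31 of the 32 genes tested in order of fold change (red, above the mean; blue, below; colors end at 1). Vehicle replicate 3 departs from both other vehicle mice at *Abca8a* and *Lpcat1*, vehicle replicate 2 does at *Scd1* and *Apoc3*, and the vehicle mice are spread evenly at *Abca1*.

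The SD of log2(FPKM + 1) between mice was larger with vehicle than with FGF1ΔHBS for 24 of the 32 lipid genes tested (75.0%), beside 64.5% of all genes tested. Vehicle replicate 1 held the highest or lowest value of 18 of the 32 lipid genes (56.2%) and vehicle replicate 3 of 16 (50.0%), beside 39.0% and 42.7% of all genes tested. Vehicle replicate 2 held such a value for 7 (21.9%), beside 33.2% of all genes. The FGF1ΔHBS mice held 5, 8 and 10 (15.6%, 25.0% and 31.2%), beside 27.0%, 32.5% and 25.6% of all genes. From a list of 28 genes of cholesterol synthesis and uptake, 5 were analysed here (*Acat2*, *Mvd*, *Insig2*, *Stard4* and *Npc2*). All 5 had overlapping groups and log2 fold changes between -0.18 and 0.08, and 0 were at an unadjusted p under 0.05.

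The members by name only were also read. *Gpatch4* was at 5.48, 6.10 and 4.77 FPKM with vehicle and at 4.58, 4.21 and 4.43 FPKM with FGF1ΔHBS, where limma gave an adjusted p of 0.275, and *Gpatch8* had overlapping groups. Without both genes, 4 lipid genes higher and 2 lower were at an unadjusted p under 0.05, and the median log2 fold change of the 30 genes left was -0.0085.

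A property that the name rule did not use was the GC content of the longest transcript. Across the 32 lipid genes, the log2 fold change was lower in genes of higher GC content (Spearman rho -0.57), and across the 2039 genes tested with a known transcript rho was -0.22. Genes share libraries and are not independent, so this is a description. Of the genes at an unadjusted p under 0.05, the lower *Acsf2*, *Acad12* and *Gpatch4* had 54.5%, 54.1% and 52.2% GC. The higher *Abhd17c*, *Acaca*, *Apod* and *Acsl3* had 50.2%, 49.1%, 47.8% and 43.2%. *Acad11* (42.0%) and *Osbpl8* (40.1%) were low in GC and had log2 fold changes below 0 (-0.15 and -0.04). Once GC content was corrected for, *Acsf2* had a log2 fold change of -0.52 and *Apod* of 1.09, and the same numbers of lipid genes (4 higher and 3 lower) were at an unadjusted p under 0.05, beside 8.92% and 8.53% of all genes in that fit.

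**Figure D5:**
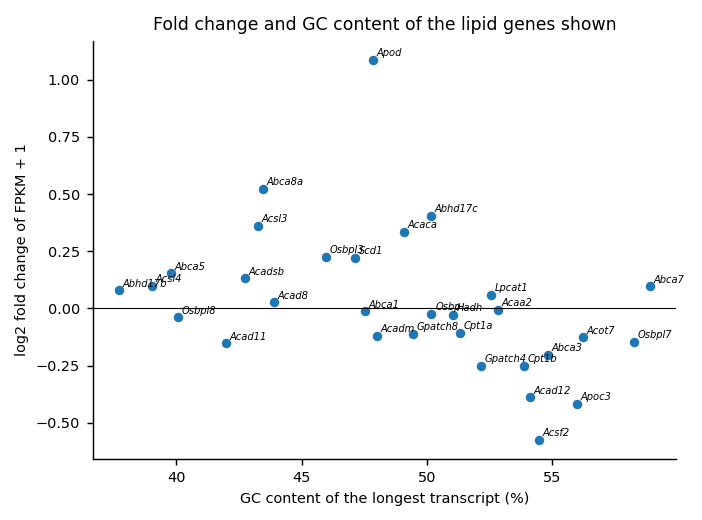
Log2 fold change of FPKM + 1 (FGF1ΔHBS minus vehicle) against the GC content of the longest GENCODE M21 transcript for 31 of the 32 lipid genes tested, 1 point per gene. Genes above 53% GC lie below 0 except *Abca7*, and *Apod* stands alone near 1.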

How the data were processed

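Hearts of 6 *db/db* mice (3 vehicle, 3 FGF1ΔHBS) were profiled by RNA-Seq. The authors deposited FPKM values per gene and mouse. The submitters' processing notes list Bowtie 0.12.2, HISAT2 2.0, StringTie 1.3.0 and the build mm8, without their roles. The loci in the table instead overlapped the GENCODE M21 annotation of GRCm38 for 4104 of 4132 genes, and locations given here are those of that annotation. The study describes single-end reads and the labels paired-end libraries. For 7 lipid genes (*Acadsb*, *Acad11*, *Fabp2*, *Cpt1b*, *Pla2g3*, *Osbpl7* and *Abca3*) the deposited locus ran over 1000 bases past the gene, so reads of neighbors may be included. The overrun was largest for *Acadsb* (1675410 bases), *Acad11* (60833 bases) and *Fabp2* (30335 bases). The table is part of a transcriptome and gene sets were not tested.

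Values were put on the log2(FPKM + 1) scale and genes averaging 1 FPKM or more (2041 genes) were fitted using limma 3.58.1 (lmFit, eBayes with trend; R 4.3.3), unpaired as in the study's statistics, with Benjamini-Hochberg adjustment over all genes tested and a threshold of 0.05. A fold change on this scale understates changes of low genes. The fit was tested on simulated data. Genes described in full were those at an unadjusted p-value under 0.05, the most abundant of each role and fixed genes of cardiac fatty acid handling, and the others are given because every member is accounted for. Results of 1 lipid gene are not reported here, but it stayed in the fits and counts. The members and lists were chosen with earlier results of these data known. Alternatives were no filter, a minimum of 5 FPKM, a pseudocount of 0.1, scaling by median ratios, quantile normalization, GC correction, eBayes robust or without trend, a block for the replicate number, and leaving out each mouse. Leaving out the G-patch genes was added after seeing the data.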

Additional observations from a re-analysis of the deposited data

How the results depend on the processing

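With 3 mice in each group and no read counts, small differences could not be resolved. Of the 32 lipid genes tested, 21 kept the direction of their log2 fold change under every alternative and 11 turned in at least 1. The count at an adjusted p-value under 0.05 was 0, and ranged from 0 to 2 with each mouse left out, the 2 being *Apod* and *Acsf2* without vehicle replicate 3, when 82 of all genes did so. At the unadjusted threshold of 0.05, 4 genes were higher and 3 lower. With a minimum of 5 FPKM, which removed *Acsl3*, *Acaca* and *Gpatch4*, 2 were higher and 2 lower of 19 lipid genes, beside 8.64% and 11.1% of all genes. With each mouse left out, 2 to 5 lipid genes were higher, beside 5.24% to 8.13% of all genes, and 2 to 6 were lower, beside 5.98% to 16.1%. The fewest higher came without FGF1ΔHBS replicate 3, and the most lower without vehicle replicate 3. Some changes near 0 turned sign with the settings. Larger ones, those of *Apoc3* (-0.42), *Scd1* (0.22), *Acadsb* (0.13) and *Cpt1a* (-0.11), turned only with a mouse left out. *Abca1* was at 0.0091 with a pseudocount of 0.1, 0.0063 with median ratio scaling and 0.035 with quantile normalization, *Acaa2* at 0.021 with median ratio scaling and 0.039 with GC correction, *Hadh* at 0.00030 with GC correction, *Osbp* at 0.00063 with median ratio scaling and 0.014 with quantile normalization, and *Osbpl8* at 0.017 with quantile normalization. With each mouse left out, the log2 fold change ranged from -0.31 to 0.30 for *Abca1*, -0.12 to 0.13 for *Acaa2*, -0.029 to 0.073 for *Acad8*, -0.00098 to 0.27 for *Acadsb*, -0.84 to 0.27 for *Apoc3*, -0.28 to 0.098 for *Cpt1a*, -0.061 to 0.019 for *Hadh*, -0.23 to 0.24 for *Lpcat1* and -0.19 to 0.89 for *Scd1*. The cause of these turns was not tested. Mice with the same replicate number did not deviate together (r from -0.22 to -0.0078). With the replicate block, 0 lipid genes and 0 of all genes passed the adjusted threshold. At an unadjusted p-value under 0.05, 4 lipid genes were higher and 3 lower in that fit, beside 5.44% and 7.74% of all genes. There and with quantile normalization, *Cpt1b* took the place of *Gpatch4* among the 3 lower.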
